A study of Drosophila melanogaster with 2 samples.

Results

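MicroRNA precursor genes are the genes of the short hairpin RNAs from which microRNAs are cut. They were taken as all genes with a transcript of biotype pre_miRNA in the Ensembl release 115 gene models of the fly, which gave 262 genes out of 17873 annotated genes other than transposable elements. Of these, 2 lay on a ribosomal DNA scaffold with no listed peaks and were set aside. The other 260, at 203 separate loci, lay on the chromosome arms and were between 50 and 174 bp long, with a median of 92 bp. By position, 100 lay in an intron of a protein-coding gene on their strand, 38 on an exon of such a gene, 30 antisense to one, and 92 overlapped no protein-coding gene. Another precursor lay within 10 kb on the same strand for 79 of them, called clustered, which formed 22 clusters, and 181 stood alone.

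The precursors were set against the positions of zld-GFP peaks in Drosophila melanogaster embryos. The single group was of whole embryos of both sexes, aged 0 to 24 hours and pooled, from a transgenic line that stably carries zld (also named vfl) with GFP at the C-terminus of its protein. Chromatin was sonicated to a size range of 200 to 800 and, by the sample descriptions, immunoprecipitated through GFP, while the labels' antibody field reads vfl. There were 2 biological replicates, numbered 2 and 3, and no other condition, so each comparison is between precursors and other genes or sites of the same embryos and has no test over samples. A relaxed list of 30000 peaks was given for either replicate and for the pooled data, and a list thresholded for reproducibility held the 2876 strongest pooled peaks. Their deposited signal values ran from 61.82 to 1231. Read depth is unknown, and the intervals given on shares are 95% Wilson intervals that cover counting error only and treat neighbouring precursors as independent. Embryos of all these hours were mixed, so a site used at 1 stage or in a few cells and a site used weakly throughout cannot be told apart.

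Most animal microRNAs are transcribed by RNA polymerase II as long primary transcripts, either from their own promoter or as part of the intron of a host gene. Drosha with its partner Pasha cuts the hairpin out in the nucleus, Ranbp21 exports it, Dicer-1 with Loquacious cuts it to a duplex, and a strand is loaded into Argonaute-1, which represses mRNAs paired to its seed, the bases near the 5′ end of the microRNA. Zelda, the zld protein, makes closed chromatin accessible when zygotic transcription begins, and the mir-309 cluster, whose products clear maternal mRNAs, is among its textbook targets.

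The mature products of the best known precursors with a nearby thresholded peak are shown in RNA letters with the seed, bases 2 to 8, in capitals. They are shown beside relatives with the same seed that had no thresholded summit within 2 kb, because the same seed can be written by precursors at unlike loci. Where both strands of a hairpin give a product, the one with the lower miRBase number is printed, and the sequences are those of the NCBI RefSeq Release 6 genome.
mir-279: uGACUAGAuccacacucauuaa
mir-996: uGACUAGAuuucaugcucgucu
mir-92a: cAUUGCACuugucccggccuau
mir-92b: aAUUGCACuagucccggccugc
mir-275: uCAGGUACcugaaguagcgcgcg
mir-306: uCAGGUACuuagugacucucaa
mir-305: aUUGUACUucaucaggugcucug
mir-282: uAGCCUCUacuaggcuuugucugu
mir-277: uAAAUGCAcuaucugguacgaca
mir-375: uUUGUUCGuuuggcuuaaguua
mir-ban: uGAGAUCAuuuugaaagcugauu
mir-2a-1: uAUCACAGccagcuuugaugagc
mir-13b-1: uAUCACAGccauuuugacgagu
mir-11: cAUCACAGucugaguucuugc
The seed GACUAGA is shared by mir-279 and mir-996. The seed of mir-92a and mir-92b is AUUGCAC. That of mir-275 and mir-306 is CAGGUAC. The last 3 carry AUCACAG, the seed of the largest family with a member near a thresholded summit.

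Genomic sequence on dm6 is shown for 4 summits near precursors, since it lets the words searched for be seen in place. For mir-279 it is 300 bp around the start of its primary transcript lncRNA:CR31044, whose first bases are in capitals. For the others it is the summit with 100 bp on each side, written along the strand of the precursor, with capitals on TAGGTAG for mir-277, on GAGAG (here read on the opposite strand as CTCTC) for mir-275, and on CAGGTAA for mir-2496.
mir-279 (chr3R:29214362-29214661, plus strand): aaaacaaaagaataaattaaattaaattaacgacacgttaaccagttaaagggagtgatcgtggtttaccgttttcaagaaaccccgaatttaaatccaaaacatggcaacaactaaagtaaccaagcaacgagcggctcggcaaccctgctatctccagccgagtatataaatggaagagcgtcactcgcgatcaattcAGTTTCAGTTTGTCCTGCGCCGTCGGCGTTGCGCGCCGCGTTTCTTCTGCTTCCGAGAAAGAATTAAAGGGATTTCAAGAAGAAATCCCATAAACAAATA
mir-277 (chr3R:10098112-10098312, plus strand): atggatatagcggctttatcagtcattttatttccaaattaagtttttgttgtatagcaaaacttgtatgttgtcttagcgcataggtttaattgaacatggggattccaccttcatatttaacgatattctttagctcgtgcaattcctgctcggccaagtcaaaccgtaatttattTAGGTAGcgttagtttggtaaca
mir-275 (chr2L:7425264-7425464, plus strand): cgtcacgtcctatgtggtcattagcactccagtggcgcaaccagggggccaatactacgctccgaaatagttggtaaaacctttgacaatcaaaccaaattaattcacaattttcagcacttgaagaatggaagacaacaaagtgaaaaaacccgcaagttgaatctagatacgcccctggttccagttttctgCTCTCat
mir-2496 (chrX:2009715-2009915, plus strand): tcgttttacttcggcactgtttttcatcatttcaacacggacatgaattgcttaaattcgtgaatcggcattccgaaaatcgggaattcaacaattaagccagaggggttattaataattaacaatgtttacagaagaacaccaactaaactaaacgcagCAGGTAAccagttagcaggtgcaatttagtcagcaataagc

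Few precursors had a strong peak close by. A thresholded summit lay within 2 kb of 23 of the 260 precursors (8.85%, interval 5.97 to 12.9%), at 21 loci. The same count was 21 with the 2876 strongest peaks of replicate 2 and 22 with those of replicate 3, or 21.5 ± 0.707 (SD, n = 2). At this distance 29.3% of 13968 protein-coding genes, 21.7% of 591 snoRNA, snRNA and tRNA genes and 14.7% of 2548 other noncoding RNA genes had a thresholded summit, and 7.48% of all bases of the arms lay so close to one. The precursors were thus below each other class of genes, while their interval held the share of bases. With the strongest peaks of the replicates, 29.0% of coding genes were counted in replicate 2 and 29.1% in replicate 3. Coding genes, with a median length of 2164.5 bp, and other noncoding RNA genes, with a median of 714 bp, span more sequence than precursors. The part of length in their higher shares was not tested.

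The small RNA genes are closer to precursors in size, and they too had more summits at each distance tried. Within 500 bp, 9 precursors (3.46%, interval 1.83 to 6.45%) had a thresholded summit, against 5.92% of small RNA genes and 22.3% of coding genes. Within 1 kb there were 15 (5.77%), against 12.4% and 24.7%. Within 5 kb there were 61 (23.5%, interval 18.7 to 29.0%), against 35.7% and 40.7%. The intervals of precursors and small RNA genes overlapped at 500 bp, did not overlap at 1, 2 and 5 kb, and overlapped at 10 kb, where the shares were 40.4% and 47.9%. Among the small RNAs, snoRNA genes, most of them in introns, stood at 29.7% within 2 kb and tRNA genes, at 13.4%, stood nearer the precursors.

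**Figure D1:**
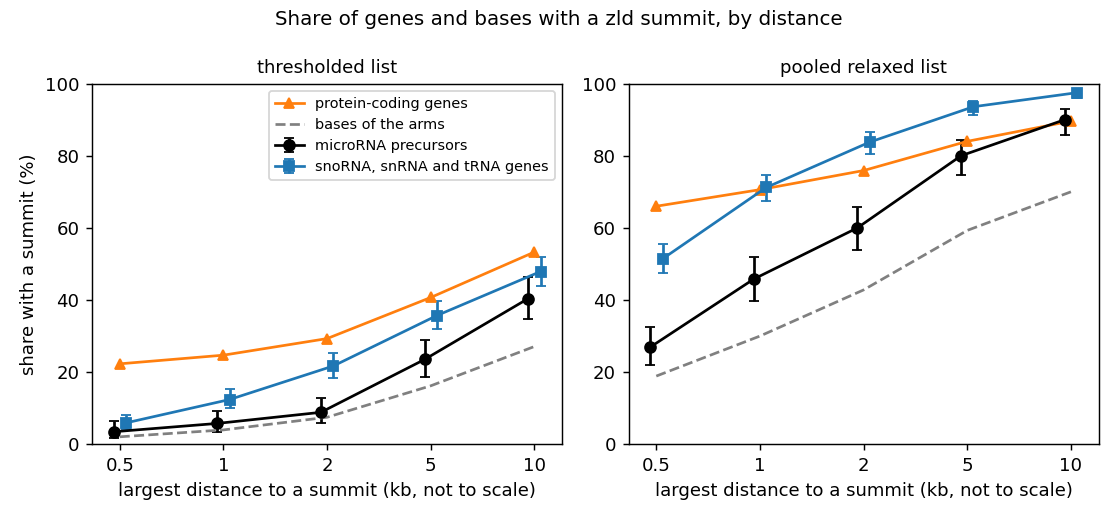
Share of genes of each class, and of bases of the chromosome arms, with a summit of the thresholded list (left) or the pooled relaxed list (right) within each distance, with bars for the 95% Wilson intervals of precursors and small RNA genes. The precursors follow the bases of the arms at short range in the thresholded list and lie below small RNA genes at every distance, with 8.85% against 21.7% at 2 kb.

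The relaxed pooled list reached further. A relaxed summit lay within 2 kb of 156 precursors (60%, interval 53.9 to 65.8%), against 75.9% of coding genes, 83.8% of small RNA genes and 42.8% of bases. Of the 156, 23 had a thresholded summit and 133 had a relaxed one only. For 125 of the 156, each replicate list also held a relaxed summit within 2 kb, which need not be the same peak. That count was not made for other genes, so it does not measure how well the peaks replicate. The best relaxed peak had a deposited q value of at most 0.05 at 78 precursors. In the whole pooled relaxed list, 8721 of 30000 peaks had such a q value. That background counts every peak, while the best peak was taken at each precursor, so the shares are not like for like. No such count is given for coding or small RNA genes. The remaining 104 precursors had no pooled summit in reach, and 76 of these had none in either replicate list.

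**Figure D2:**
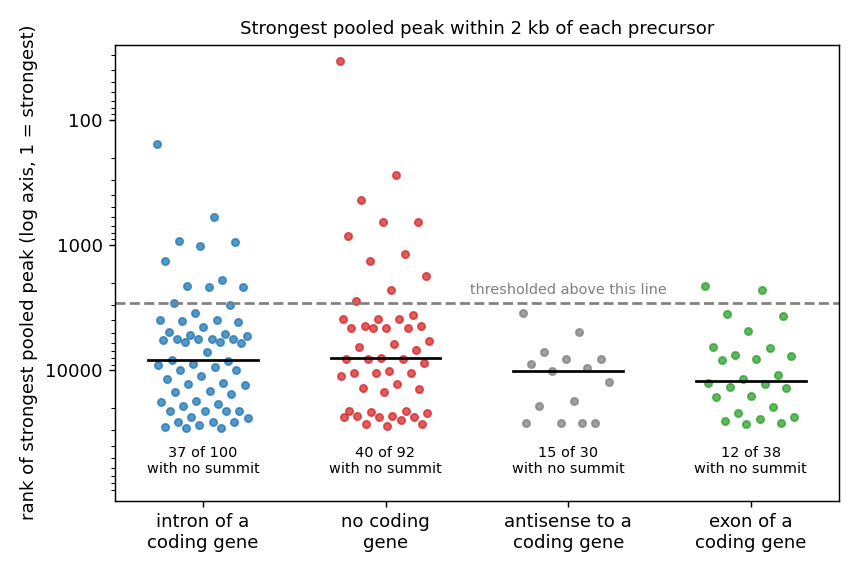
Rank of the strongest pooled peak with a summit within 2 kb of each precursor, by position of the precursor, with medians as bars and the number with no such peak below. The dashed line is the end of the thresholded list at rank 2876. It is passed by 10 intronic precursors, 11 outside coding genes, 2 on exons and none of the antisense ones.

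The classes of precursor were counted apart. Of intronic precursors 10 of 100 had a thresholded summit within 2 kb (10%, interval 5.52 to 17.4%), where 6.79% of intron bases lie so close to one. Of those outside coding genes 11 of 92 had one (12%, interval 6.81 to 20.2%), against 4.33% of intergenic bases, a share below that interval. None of 30 antisense precursors had one (interval up to 11.4%), and 2 of 38 on exons did (5.26%). Clustered precursors stood at 7 of 79 (8.86%) and single ones at 16 of 181 (8.84%). Of the 34 with ends at the splice sites of their intron, the arrangement of mirtrons, which are made by splicing in place of Drosha, 1 had a thresholded summit, mir-3643. All these intervals overlapped each other. The classes are small, and differences between them were not tested.

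Among the 92 precursors outside coding genes, 42 overlapped a noncoding RNA gene on their strand, and 8 of these had a thresholded summit (19%, interval 9.98 to 33.3%). Of the other 50, mir-305, mir-4981 and mir-2496 had one (6%, interval 2.06 to 16.2%), so the intervals overlapped. The precursors were also divided by nearness to a coding start. Within 2 kb of a coding start, 15 of 110 precursors had a thresholded summit (13.6%, interval 8.44 to 21.3%), and further away 8 of 150 did (5.33%, interval 2.73 to 10.2%), with intervals that overlapped. Over bases the shares were 17.8% near a coding start and 2.38% away from one, and over small RNA genes they were 31.9% and 9.85%. Precursors away from coding starts were thus above the bases there, with an interval that did not hold 2.38%, and those near starts held the bases' share within theirs.

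The strongest peak at any precursor was that of mir-279, which restricts the formation of CO2-sensing neurons. The precursor lies at chr3R:29215585-29215684, and the summit, 1122 bp upstream of it, was 99 bp upstream of the start of lncRNA:CR31044, the sequence shown above. Its signal was 437.7 in the pooled list, 267.5 in replicate 2 and 170.7 in replicate 3. It ranked 34 of the pooled peaks, 35 in replicate 2 and 31 in replicate 3, so the replicates placed it alike. The nearest coding start, that of eEF1gamma, was 5709 bp away. The other precursor in this transcript, mir-996, has the same seed. Its own strongest peak within 2 kb had signal 31.94 and rank 8747, and the mir-279 summit lay 2721 bp from it.

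The next precursors by signal were mir-92a, mir-4981 and mir-282. The summit of mir-92a, which acts in neural stem cells, had signal 247.3 pooled, 146.7 in replicate 2 and 102.6 in replicate 3, with ranks 156, 161 and 150. It lay 440 bp downstream of the precursor and 206 bp upstream of an internal start of the host gene jigr1. The peak of mir-4981 had signal 195.0, 112.5 and 81.33 in the same order, 648 bp upstream of the start of CG14762. The peak of mir-282 had signal 156.4, 98.78 and 68.47, and lay 306 bp upstream of the start of lncRNA:CR43626, inside which this precursor sits. In each of these 3 the replicates ranked the peak within their strongest 405.

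A group of peaks at microRNAs with known roles in growth and metabolism was weaker. The summit 431 bp upstream of mir-275 serves also mir-305, a regulator of intestinal stem cells, and had signal 131.1, with 69.35 in replicate 2 and 58.39 in replicate 3. It lay 1502 bp from the nearest coding start, that of muc, and 1544 bp inside lncRNA:CR43857. The start of that transcript had a weaker thresholded peak of its own, with signal 72.43 and rank 2132. The fly member of the miR-200 family, mir-8, which controls body growth, had a summit with signal 115.8, 71.58 and 46.51, 884 bp upstream of the hairpin and 141 bp upstream of the start of lncRNA:CR43650. At mir-277, which acts on branched-chain amino acid breakdown, the summit lay 1810 bp upstream with signal 92.34. It ranked 1065 in replicate 2 and 3144 in replicate 3, outside the strongest 2876 there. The other members of its cluster, mir-34 and mir-317, had relaxed peaks only, at ranks 6531 and 11075.

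At some precursors the replicates placed the peak differently. The gene of mir-14, which limits cell death and fat storage, had summits 1081 bp downstream (signal 69.34) and 127 bp upstream (signal 62.81). Their ranks were 3484 and 3880 in replicate 2, and 1634 and 2479 in replicate 3, so replicate 2 placed both below its strongest 2876. The peaks of mir-375, with signals 80.6 and 62.21, went the other way, with ranks 1297 and 2052 in replicate 2 and 4255 and 5521 in replicate 3. The bantam precursor, listed as mir-ban, whose product promotes growth and blocks apoptosis, was the last inside the distance. Its summit of signal 62.85 and rank 2774 lay 1997 bp downstream, with ranks 3236 and 2906 in the replicates. The first outside was mir-1009, with a thresholded summit at 2158 bp, followed by mir-955 at 2294, mir-4982 at 2368, mir-998 at 2466 and mir-2b-2 at 2673 bp.

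**Figure D3:**
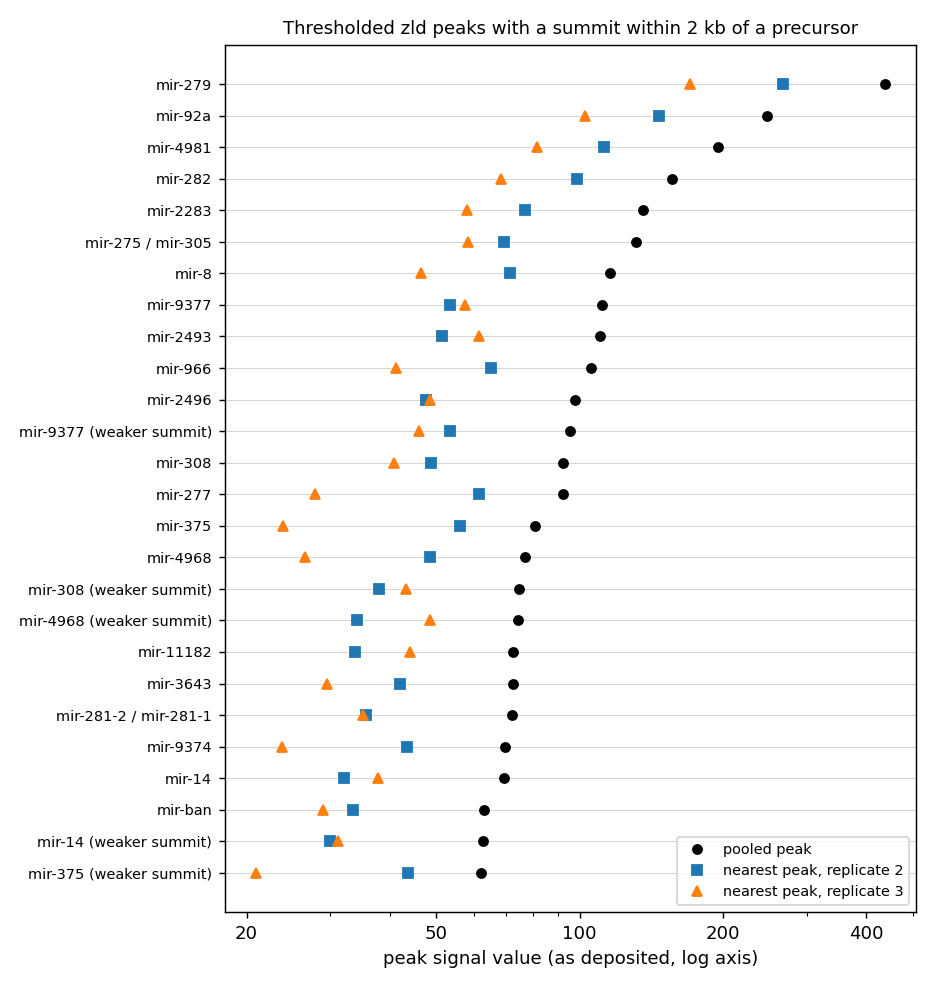
Deposited signal value of the 26 thresholded peaks with a summit within 2 kb of a precursor (black), on a log axis. Blue and orange mark the strongest peak within 200 bp of that summit in each replicate list, called nearest peak in the key. A second peak of the same precursor is marked as the weaker summit. Both replicates are highest at mir-279 and mir-92a, and at mir-375 replicate 2 had 56.07 and replicate 3 had 23.81.

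Several other precursors had their summit at the start of a host or neighbouring gene. The summit near mir-2283 (signal 136.0), which lies in the overlapping genes CG8176 and Kdm3, a histone demethylase gene, was 43 bp upstream of the start of CG8176. That near mir-2493 (110.3) was 13 bp upstream of CG42788, and that near mir-966 (105.8) was 67 bp upstream of Pfas, a gene of purine synthesis. Near mir-2496 (97.62) it was 142 bp upstream of lncRNA:CR45478 and 451 bp upstream of PIG-K. The summits of mir-11182 (72.63), mir-3643 (72.58) and mir-9374 (69.79) lay at the starts of CG5726, of the oligosaccharyltransferase subunit gene OstDelta and of the nuclear receptor gene Hr39, all within 143 bp. In these 7 cases the peak could be counted for the host or neighbour as well as for the precursor, and the 2 kb rule does not tell them apart.

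For a few intronic precursors a peak lay away from the host's start. At mir-9377 in Tis11, a gene for an mRNA decay factor, the summits with signals 111.5 and 95.51 lay 6085 and 5044 bp from the nearest coding start. At mir-308, in the ribosomal protein gene RpS23, the stronger summit (92.38) was 1610 bp downstream of the start of RpS23. That is past the 3′ end of this 1532 bp gene and so outside the host. The weaker summit (74.52) was 23 bp downstream of the start. At mir-4968 in Mob2 the stronger summit (76.92) was 1417 bp upstream of a start and the weaker (74.42) was 22 bp downstream of one. The summit shared by mir-281-1 and mir-281-2 in Oda, the ornithine decarboxylase antizyme gene, had signal 72.02 and lay 831 bp from a coding start and 410 bp from that of asRNA:CR46194.

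Counted over the 26 distinct summits near precursors, 10 (38.5%) lay within 500 bp of a coding start, where 64.5% of all 2876 thresholded summits did. Within 500 bp of the start of another noncoding RNA gene lay 6 of the 26, of which 4 were near no coding start. Over all thresholded summits 4.31% were near such a noncoding start. The summits of intronic precursors were near a coding start in 7 of 12 cases, and those of precursors outside coding genes in 1 of 12. Signal did not set them apart: the median was 92.36 for the 26 and 89.39 for all.

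The strongest summit was upstream of the precursor on its strand in 18 of 23 cases (78.3%) and downstream in 5, those of mir-92a, mir-9377, mir-308, mir-14 and mir-ban. Small RNA genes had the same tendency, with 77.3% upstream, and in the relaxed list the precursors' share was 61.5%. The median distance was 884 bp. No thresholded summit lay inside a hairpin.

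**Figure D4:**
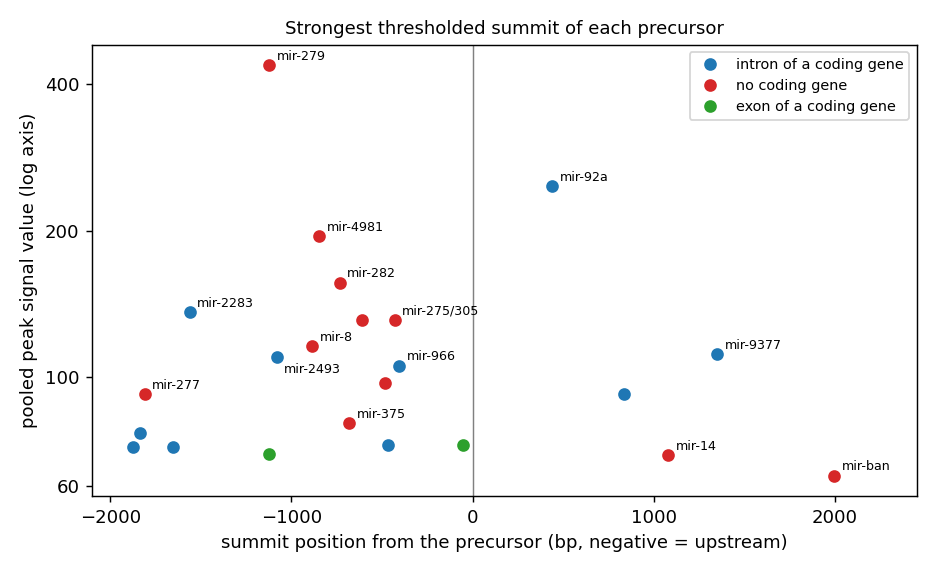
Signal value (log axis) of the strongest thresholded summit of each of the 23 precursors against its position from the precursor along the precursor's strand, coloured by the precursor's place. Upstream summits number 18, those of mir-279, mir-4981 and mir-282 the strongest of them, and mir-ban sits at the outer edge, 1997 bp downstream.

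Seen per locus, and placed by the first precursor of each, 7 of 57 loci outside coding genes (12.3%) had a thresholded summit in the first 1 kb upstream. In each other 1 kb bin out to 10 kb on either side the share was between 0 and 7.02%, or at most 4 loci. Intronic loci had no such step: 4 of 89 (4.49%) had a summit in the first 1 kb upstream, and their highest bin, 3 to 4 kb upstream, held 10.1%. With counts this small the order of the bins is a description of these loci.

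**Figure D5:**
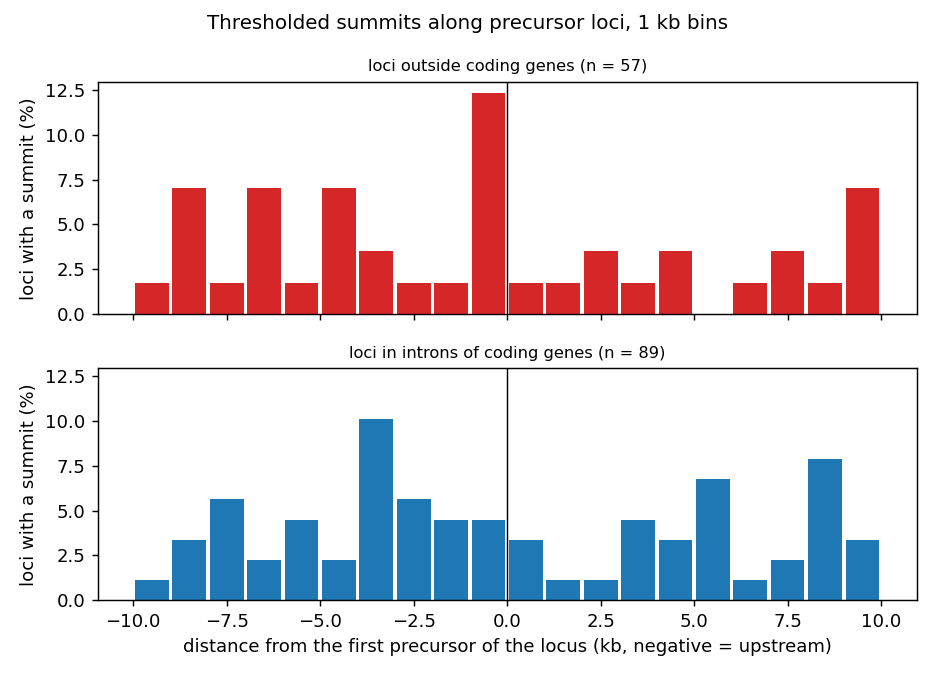
Share of precursor loci with a thresholded summit in each 1 kb bin upstream (negative) and downstream of the first precursor, for loci outside coding genes (top) and in introns (bottom). The bin next to the precursor on its upstream side is the tallest for loci outside coding genes, at 12.3%, and is not for intronic loci, at 4.49%.

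An intronic precursor is made from its host's transcript, so the starts of the hosts were examined too. Every annotated start was counted, including starts downstream of the precursor, whose transcripts do not hold it. The 138 precursors in introns or exons on the coding strand had 130 hosts, and 44 of these (33.8%, interval 26.3 to 42.3%) had a thresholded summit within 1 kb of a start. Overlapping hosts that share a precursor and a start summit, such as CG8176 and Kdm3, were counted apart, and the interval treats them as independent. Over all coding genes the share was 19.7%, with a median length of 2164.5 bp and 1 start, while hosts had a median of 13462 bp and 2 starts. The part of length and of the number of starts in the difference was not tested. At 33 of the 44 hosts no precursor had a thresholded summit within 2 kb. Examples are spi, a ligand gene of the EGF receptor that carries mir-2a-1, mir-2a-2 and mir-2b-2 and had a summit with signal 234.8 that lay 5462 bp from mir-2b-2, the first of them along its strand, PAPLA1 (226.1) with mir-4984, Btk (209.8) with mir-2b-1, and the cGMP-dependent kinase gene for (209.7) with mir-4972. SREBP, the sterol regulator gene that carries mir-33, had 104.8. Among these examples, the summit of for lay 4438 bp downstream of mir-4972, so its start is not one that yields this precursor.

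There were 37 noncoding RNA genes that held a precursor whole, which leaves out lncRNA:mimi at the edge of mir-9381. Of these, 8 had a thresholded summit within 1 kb of a start (21.6%, interval 11.4 to 37.2%). Over all 2548 noncoding RNA genes other than microRNA genes, with these hosts among them, the share was 7.73%. In 7 of the 8 a precursor was within reach of a thresholded peak. They were the hosts of mir-279 (with mir-996 out of reach), mir-282, mir-8, mir-14, mir-275 and mir-375, and asRNA:CR46194 over the mir-281 pair. The other was lncRNA:Hsromega, the heat shock RNA gene, whose precursor mir-4951 lies 20589 bp from its outermost start. These hosts were longer too, with a median of 6436 bp against 714 bp.

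Clusters were rarely covered as a whole by the 2 kb rule. Of the 22 clusters 5 had a thresholded summit at a member, and in 2, mir-275 with mir-305 and the mir-281 pair, every member was in reach. By the single product taken for each hairpin, the 260 precursors carried 224 seeds, 16 of them shared. Of 5 shared seeds so counted with a precursor near a thresholded summit, none had all of its precursors near one. For the mir-281 pair, products of opposite arms were taken (AAGAGAG for mir-281-1, GUCAUGG for mir-281-2). A seed shared by such hairpins was therefore not counted. The seed AUUGCAC belongs to mir-92a (rank 156), to mir-92b (strongest relaxed rank 12779) and to the mir-310, mir-311, mir-312 and mir-313 cluster, whose common peak had signal 46.31 and rank 4589. That peak ranked 2968 in replicate 2 and 29259 in replicate 3. Of 13 precursors with the seed AUCACAG, the family of mir-2, mir-6, mir-11 and mir-13, mir-308 alone had a thresholded summit, and the others that had any peak ranked between 3897 and 28634.

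The mir-309 cluster, on arm 2R in lncRNA:CR44504, had no listed peak in reach. None of its 8 precursors (mir-309, mir-3, mir-286, mir-4, mir-5, mir-6-1, mir-6-2 and mir-6-3) had a relaxed summit within 2 kb in the pooled list or in either replicate. The nearest pooled relaxed summit lay 5228 bp from mir-309, at rank 21894. The nearest thresholded one lay 8085 bp from mir-309 and 9064 bp from mir-6-3, with signal 100.6. The depth of the data is unknown, so this is a statement about the lists and not about the absence of the protein.

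Well known precursors included some with strong peaks and more without. Of 51 chosen as such, 50 were matched by name, 9 had a thresholded summit (18%, interval 9.77 to 30.8%, beside 8.85% of all precursors), 27 a relaxed one only and 14 none. The 9 are mir-279, mir-92a, mir-282, mir-275, mir-305, mir-8, mir-277, mir-14 and mir-ban, described above. Among those without, muscle's mir-1 had its strongest peak at signal 33.68 and rank 7932, with 13.7 in replicate 2 and 20.85 in replicate 3, while mir-133 had none. The nervous system's mir-124 stood at rank 21236 and mir-9a, which acts in sense organ formation, at 14063. The let-7 complex transcript, whose products let-7 (mir-let7), mir-100 and mir-125 act late in development, had its peak at rank 26781, with a relaxed peak in replicate 2 and none in replicate 3, and mir-125 had no pooled summit in reach. In the Hox complexes mir-10 had a summit 26 bp upstream at rank 6209, and mir-iab-4 and mir-iab-8, which are read from opposite strands of the same hairpin, shared one at 7151. Ranks of mir-7, mir-276a, mir-278 and mir-12 were 8285, 8183, 19772 and 12628, and mir-184, mir-283 and mir-304 had no pooled summit.

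Just under the threshold stood 10 further precursors. The first were mir-4980 in CanB2, a calcineurin subunit gene, with signal 61.43 and rank 2896, and mir-995 in the cyclin-dependent kinase gene Cdk2, with signal 60.45 and rank 2994. In the replicates mir-4980 had 30.21 and 30.88, and mir-995 had 34.48 and 26.95, beside 33.42 and 28.91 for the thresholded peak of mir-ban. Then came mir-9380 (55.35), mir-4911 (54.99), mir-4949 (54.22), mir-31a (53.71), mir-4977 (53.21) and the cluster of mir-13b-1, mir-13a and mir-2c (51.24). For this last cluster the replicates gave 26.49 and 24.93.

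Agreement between the replicates was partial at this signal. Of the 23 precursors, 18 had a peak of the strongest 2876 of replicate 2 within 200 bp of their thresholded summit, 19 one of replicate 3, and 14 had both. The same counts over all thresholded summits were not made, so better or worse agreement near precursors cannot be read from them. All 26 summits had a relaxed peak in both replicates, at ranks from 35 to 3880 in replicate 2 and from 31 to 5521 in replicate 3. Over these 26 the signals of the replicates had a Spearman correlation of 0.591, and over 2851 thresholded summits with a peak in both it was 0.545. These points share the same libraries and were all taken from the top of the pooled list.

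Words known from early enhancers and promoters were looked up within 100 bp of the summits on both strands. CAGGTAG, the textbook Zelda site, lay at 2 of the 26 summits (7.69%), those of mir-308 and of the mir-281 pair, against 2.02% of all thresholded summits. With the strongest peaks of replicate 2 alone it was found at 1, and with those of replicate 3 at 2. TAGGTAG lay at 2, those of mir-277 and mir-14, against 1.63%, and CAGGTAA at 1, that of mir-2496, against 2.12%. CAGGCAG and CAGGTAT lay at none. These 5 words are variants of each other, so a given place can match 1 of them only. The insulator and promoter word TATCGATA, bound by DREF and BEAF-32, lay at 2 (mir-11182 and mir-3643), against 6.68%. GGTCACAC, the core promoter word known as motif 1, lay at 1 (mir-308), against 3.58%. GAGAG, read by GAGA factor, lay at 5 (19.2%), those of mir-275, mir-9374 and mir-ban and both of mir-9377, against 23.6%. Counts of 1 or 2 in 26 describe these summits and carry no rate for precursors.

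The genes that make and use microRNAs had peaks more often than the precursors. Of 20 named genes 19 were matched, and 12 (63.2%, interval 41.0 to 80.9%) had a thresholded summit within 2 kb of the gene, against the 29.3% of coding genes. The part of gene length in this was not tested. In 7 the strongest such summit was within 1 kb of the gene's own start, where 19.7% of coding genes had any thresholded summit within 1 kb of a start. Measured from the starts and not the whole gene, 8 of the 19 had a thresholded summit within 2 kb. The share of all coding genes by that measure was not counted, so this 8 has no background beside it. The strongest was near pasha, the partner of Drosha, with signal 399.8 pooled, 253.3 in replicate 2 and 146.7 in replicate 3, but its nearest start was that of Mnat9, and pasha's own start was 1828 bp away. The peaks near loqs (237.1), the Dicer-1 partner, and Not1 (131.9), the scaffold of the deadenylase, were nearest to the starts of Ing5 and Alp6, and lay 4770 and 11145 bp from the gene's own. The peak near r2d2 (151.5), the Dicer-2 partner, was nearest to the start of Herp and 217 bp from that of r2d2.

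Other peaks lay at the gene's own start as the nearest one. They were Cbp20 (126.3), a subunit of the nuclear cap-binding complex, gw (106.7), the Argonaute-1 partner GW182, Ars2 (89.91), which aids Drosha cleavage, and Ranbp21 (72.76), the exporter. The last ranked 1388 in replicate 2 and 8804 in replicate 3. The peak near AGO1 itself (81.84) was nearest to a start of CG33155, 145 bp from a start of AGO1. Peaks near Nbr (123.2), which trims microRNA ends, Tailor (109.4), which adds uridines to precursors, and Hen1 (81.86), which methylates small RNA ends, were nearest to starts of Coq3, alphaTub84B and bsd. Without a thresholded summit were drosha, Dcr-1, AGO2, Dcr-2, Cbp80, ldbr and me31B, with strongest relaxed ranks from 3624 for ldbr to 21195 for drosha.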

How the data were processed

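The authors deposited narrowPeak lists, and the dm6 lists were used here: a relaxed list of 30000 peaks for each of the 2 replicates, a pooled relaxed list of 30000, and 2876 peaks thresholded for reproducibility from these, per the text deposited with the files. The signal value and the −log10 q value of each peak are the authors' own and served here for ranking peaks inside a single list; the deposited −log10 q reached a ceiling of 3.94. The peak caller, aligner, their versions and the scaling of signal between libraries are not stated in the sources used here. Control reads were not analysed here.

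Gene models were those of Ensembl release 115 on BDGP6.54 and sequence was the NCBI Release 6 assembly, whose arms match dm6. No pre_miRNA biotype is given at the gene level there, so the transcript biotype was used; all such symbols begin with mir-. The summit, counted from 1, was column 2 plus column 10 plus 1, and a precursor was counted when a summit lay within 2000 bp of its ends. Coding starts are those of annotated transcripts. With 1 group no test was run. Replicate counts took the 2876 strongest peaks of each, with summits within 200 bp shared. Clustered precursors lie within 10 kb of another on the same strand. The text names every precursor with a thresholded summit, the 10 next by signal, the 5 just beyond 2 kb, their hosts or nearest starts, the strongest host starts, the 50 of 51 well known precursors that were matched by name, and the 19 of 20 biogenesis genes so matched. The members, gene lists and words were chosen with earlier results of these data known, and the host starts, the split by noncoding host and the locus profile were added after seeing the data. Counting was tested on simulated data with planted summits. Python 3.11.15, numpy 2.4.6, scipy 1.17.1 and matplotlib 3.10.9 were used.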

Additional observations from a re-analysis of the deposited data

How the results depend on the processing

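Of 78 alternatives to 11 counts, 56 stayed within 1.5 times the reported count and 22 did not. The distance mattered most. At 500 bp, 1 kb and 5 kb the precursors with a thresholded summit numbered 9, 15 and 61, the clustered ones 2, 3 and 15 and the intronic ones 5, 6 and 32. At 500 bp and 5 kb, single precursors numbered 7 and 46 and those outside coding genes 3 and 18. At 500 bp, 70 precursors (26.9%) had a pooled relaxed summit, against 66.0% of coding genes, 51.4% of small RNA genes and 18.9% of bases. At 5 kb, 42 summits near precursors lay at a coding start. With the strongest 1438 thresholded peaks there were 14 precursors, 9 of them single and 6 intronic, and 5 summits at coding starts. Counts of summits at coding starts in this section have no totals beside them. They cannot be set against the 64.5% of all thresholded summits. With any gene, noncoding included, as host, 3 of the 11 precursors outside coding genes remained in that class, since 8 lie in noncoding RNA genes. CAGGTAG or TAGGTAG lay at 4 summits.

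Leaving out a replicate gave 21 to 22 precursors in all, 5 to 6 clustered, 16 single, 9 to 13 intronic and 8 to 9 outside coding genes. It gave 154 to 160 with a relaxed summit, 10 to 12 summits at coding starts, 1 to 2 with CAGGTAG, 11 to 12 biogenesis genes and 44 host starts. The alternatives on host starts were chosen after seeing the data. No paired analysis was possible because there is 1 group. Unknown read depth, the mixed ages and the rank-based lists limit all counts.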
